A study of Mus musculus with 10 samples.

Results

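Collagens are the structural proteins of the extracellular matrix, built from chains that wind into a triple helix of repeated glycine-led triplets. Fibrillar collagens form the fibers of the interstitium, collagen IV forms the sheet-like network of basement membranes, and the remaining collagens decorate fibrils, link them to membranes or build networks of their own. In the kidney, collagen IV underlies the glomerular capillaries and the tubules, and fibrillar collagens deposited by fibroblasts and pericytes are the classical material of renal fibrosis. All protein-coding genes of the deposited table whose symbol is that of a collagen alpha chain were taken, which gave 44 of 54532 genes. By textbook class, 11 of them were fibrillar, 6 were chains of collagen IV, and 27 belonged to the remaining classes. These comprised 9 fibril-associated collagens with interrupted triple helices (FACIT), 6 beaded-filament chains of collagen VI, 4 transmembrane, 3 short-chain and 2 multiplexin chains, and 3 others.

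The study asked how dimethyl malonate (DMM), a malonate ester that inhibits succinate dehydrogenase, affects obstructive nephropathy. Bulk RNA-seq was done on whole UUO kidneys of wild-type male C57BL/6 mice whose left ureter had been ligated at 8 weeks of age and that were sacrificed on day 14. DMM was given intraperitoneally at 40 mg/kg every other day, and control mice, called PBS here, received PBS, with 5 libraries in each group. Every kidney was obstructed, so both groups share the injury, and no unobstructed kidney is among these samples. Ureteral ligation is an abrupt and complete obstruction, which limits it as a model of slowly progressing kidney disease. Total counts were between 16457495 and 18078777 per library in the PBS group and between 15722527 and 19475833 in the DMM group. Marker genes of kidney tissue summed in every library to at least 715 CPM for podocytes, 1575 CPM for proximal tubule and 871 CPM for endothelium. All 8 podocyte, all 10 proximal tubule and all 9 endothelial markers had more than 3 counts in at least 1 library, and the most abundant of each list were Podxl (357 CPM on average), Kap (2269.8 CPM) and Plvap (254 CPM). Of 5 adrenal cortex markers, Cyp11b2 and Hsd3b1 had at most 3 counts in any library, and the summed level of the list was at most 10.5 CPM. The other markers of that list were detected, with 67 to 184 counts per library for Star, at most 31 for Cyp11b1 and at most 9 for Cyp21a1.

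PBS replicate 3 and DMM replicate 1 stood apart from their groups. In the deposited group means these libraries carry a weight of 0, while the other 8 libraries carry weights between 0.227 and 0.271. No reason for this is given in the sources used here. Each result is therefore given over all 10 libraries, the main comparison, and over the 8 libraries, 4 in each group. The sets share 8 libraries, so neither is an independent check of the other. Values are CPM, read counts scaled by TMM-adjusted library size, and a gene was called at an adjusted p (edgeR's quasi-likelihood test, Benjamini-Hochberg over all tested genes) under 0.05 with a fold change above 1.5. DMM replicate 4 also stood apart in its composition. Its TMM factor was 0.852, against 0.981 to 1.05 in the other 9 libraries. The FPKM ratio of Col4a1 to Col4a2 was 1.94 in it and between 1.34 and 1.48 elsewhere. Log2 ratios of DMM replicate 4 to the mean of DMM replicates 2, 3 and 5 ran against the GC content of the longest transcript across 37 members (Spearman's rho -0.43), which are not independent replicates and share these libraries. That ratio was -1.23 for Col16a1 at 61.4% GC, -0.56 for Col18a1 at 60.8% and 1.52 for Col12a1 at 48.3%, but 0.91 for Col1a1 at 58.9%. The part of GC content in this was not tested. Over the 8 libraries with a correction for GC content and length, chosen after seeing the data, the log2 fold change was -1.02 for Col12a1 (edgeR's adjusted p = 0.0221), -0.90 for Col16a1 (adjusted p = 0.0121) and -0.35 for Col18a1 (adjusted p = 0.0747).

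Collagen transcripts made up a visible part of each library. They took 1.41, 1.81, 1.09, 2.27 and 1.75% of all counts in PBS replicates 1 to 5 and 2.03, 1.19, 0.879, 1.10 and 0.917% in DMM replicates 1 to 5, each with a 95% Wilson interval no wider than 0.0139 percentage points, which covers counting error only. PBS replicate 4 and DMM replicate 1 had the highest shares and DMM replicates 3 and 5 the lowest. The groups overlapped over all 10 libraries, with means of 1.66 ± 0.444% (SD, n = 5) in PBS and 1.22 ± 0.468% (SD, n = 5) in DMM kidneys, a difference smaller than either SD. Over the 8 libraries the means were 1.81 ± 0.354% and 1.022 ± 0.147% (SD, n = 4 each), and every DMM library lay below every PBS library. The libraries left out were the lowest of the PBS group, at 1.09%, and the highest of the DMM group, at 2.03%. Leaving them out therefore moved the means apart and narrowed the spread. Bulk RNA cannot tell fewer collagen-producing cells from less collagen RNA per cell. The 6 genes with the most counts, Col3a1, Col1a1, Col4a1, Col1a2, Col4a2 and Col18a1, held between 70.9% and 79.5% of the collagen counts of a library.

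The classes did not take the same part in every kidney. Fibrillar genes took 0.643, 0.947, 0.473, 1.43 and 0.896% of all counts in PBS replicates 1 to 5 and 1.09, 0.486, 0.314, 0.559 and 0.359% in DMM replicates 1 to 5. Among DMM libraries, replicate 1 was the highest and the other 4 lay below all PBS libraries except replicate 3. The collagen IV chains took 0.375, 0.442, 0.333, 0.417 and 0.427% in the PBS and 0.463, 0.396, 0.343, 0.272 and 0.338% in the DMM libraries, in the same order. Here the spread was narrower, and the groups overlapped. The remaining classes took 0.391, 0.418, 0.281, 0.418 and 0.423% in the PBS and 0.475, 0.304, 0.222, 0.274 and 0.220% in the DMM libraries. PBS replicate 3 was far below the other PBS libraries and lay among the DMM libraries. As a share of collagen counts alone, fibrillar genes made up 45.6, 52.4, 43.5, 63.2 and 51.3% in PBS and 53.8, 41.0, 35.8, 50.6 and 39.1% in DMM replicates 1 to 5, with overlap between the groups. Collagen IV made up 26.6, 24.5, 30.6, 18.4 and 24.4% and 22.8, 33.4, 39.0, 24.6 and 36.9% in the same libraries. DMM replicates 2, 3 and 5 were the libraries in which collagen IV held the largest part, above every PBS library, while DMM replicates 1 and 4 were within the PBS range.

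**Figure D1:**
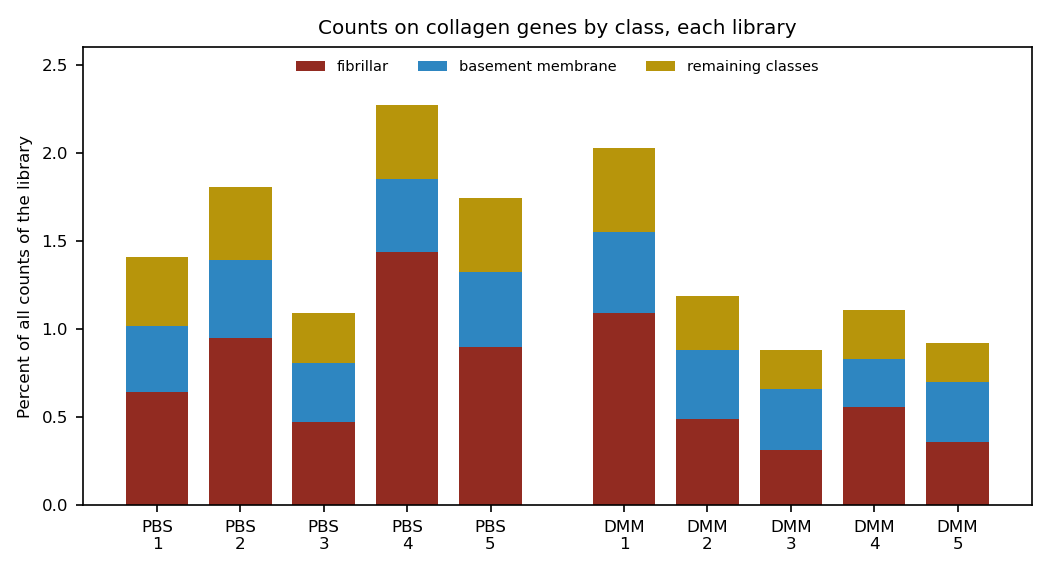
Percent of all counts of each library on fibrillar, basement membrane (collagen IV) and remaining collagen genes, stacked, for PBS replicates 1 to 5 and DMM replicates 1 to 5. The collagen total runs from 0.879% in DMM replicate 3 to 2.27% in PBS replicate 4, and DMM replicate 1, at 2.03%, stands above the other DMM libraries.

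Levels between genes are compared by the deposited FPKM, which divides each count by gene length. In PBS kidneys, Col1a1 was at 376 ± 158, Col3a1 at 311 ± 151, Col4a1 at 273 ± 36.7 and Col4a2 at 192 ± 28.6 FPKM (mean ± SD, n = 5). Col1a2 followed at 177 ± 58.4 and Col18a1 at 150.2 ± 8.14, then Col15a1 at 89.4 ± 13.7 and Col12a1 at 50.9 ± 14.9 FPKM (SD, n = 5). Neighbors in this order differed by less than the larger of their SDs, except that Col4a2 was below Col4a1, Col15a1 below Col18a1 and Col12a1 below Col15a1 by more. By mean FPKM over all libraries, 13 of the 44 members lay above 90% of the protein-coding genes with a count. A filter on low counts (edgeR's filterByExpr) kept 38 of 44 members over all 10 libraries and 37 over the 8, where Col9a3 was left out. The 6 members not tested over the 10 had at most 20 counts in any library. Col2a1, the fibrillar collagen of cartilage, had 0 to 14 counts per library. The cartilage FACIT chain Col9a1 had at most 1 and Col9a2 at most 15 counts. Col19a1 had at most 8, Col22a1 at most 20 and Col25a1 at most 18 counts in any library.

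Over all 10 libraries, 0 of 38 tested collagen genes were called lower and 0 higher by edgeR's quasi-likelihood test, as for all 16505 tested genes, of which 0% were called in either direction. The members had 0 lower and 0 higher by more than 1.5-fold at unadjusted p under 0.05 as well, against 4.11% and 1.91% of all tested genes. DESeq2 called 0 members in either direction, against 0.194% of all genes lower and 0.0545% higher. At an unadjusted p under 0.05 and the same fold change it had 1 member lower and 1 higher, against 4.42% and 2.56%. In direction, 29 of 38 members had a log2 fold change below 0, with a median of -0.32 (range -1.06 to 0.66), against 47.2% of all genes and a median of 0.02. Over the 8 libraries, 9 of 37 members were called lower and 0 higher, against 3.56% and 2.73% of 16550 genes. The 9 were Col1a2, Col5a1, Col5a2, Col11a1, Col16a1, Col8a2, Col10a1, Col15a1 and Col7a1. The libraries left out, PBS replicate 3 and DMM replicate 1, had the lowest PBS and the highest DMM share of collagen counts. Calls, p-values and gaps between groups over the 8 take no account of this and are optimistic for collagen genes. By unadjusted p under 0.05 and more than 1.5-fold, 15 members were lower and 0 higher, against 7.24% and 6.45%. DESeq2 called 12 members lower and 0 higher over the 8, against 5.4% and 4.65% of all genes. Here 33 of 37 had a log2 fold change below 0, with a median of -0.50 against 0.02 for all genes. CPM did not overlap between the groups of the 8 libraries in 12 members with DMM lower and 1 with DMM higher, against 10.6% and 9.45% of all tested genes, and over all 10 libraries in 0 members in either direction, against 1.16% and 0.794%. The calls over the 8 libraries moved with single libraries, and so did those among all genes. With 1 gene called lower each time, Col5a2, the shares of all genes called lower were 2.06% without PBS replicate 2, 1.89% without PBS replicate 4, 1.63% without PBS replicate 5 and 1.79% without DMM replicate 5. Without DMM replicate 3 there were 3 calls against 1.83% of all genes, and without DMM replicate 2 there were 7 against 3.38%. Without PBS replicate 1 there were 8 against 2.19%, and without DMM replicate 4 there were 16 against 7.61%, with 6.71% of all genes higher. From all 10 libraries, leaving out DMM replicate 1 alone gave 0 member calls, against 2.6% of all genes lower and 0.298% higher. It gave 14 members lower by more than 1.5-fold at unadjusted p under 0.05, against 6.74% of all genes. Leaving out PBS replicate 3 alone gave 0 calls among members and among all genes, and 5 members lower at unadjusted p, against 4.41%.

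Lists of cell type markers differed between libraries as well, and their part in the collagen values was not tested. The 12 fibroblast and myofibroblast markers, all tested, summed to 1393, 1629.8, 1264, 1658 and 1613 CPM in PBS replicates 1 to 5 and to 1957, 1337, 1217, 1427 and 1231 CPM in DMM replicates 1 to 5. Pdgfrb was the most abundant of them, at 313 CPM on average, and none had 3 or fewer counts in every library. DMM replicate 1 was again the highest and DMM replicate 3 the lowest, and the groups overlapped. Their median log2 fold change was -0.16 over all 10 and -0.45 over the 8 libraries, with 1 gene called lower over the 8. The 10 proximal tubule markers, led by Kap, summed to 4023, 4034, 10188, 1575 and 3009 CPM in PBS replicates 1 to 5 and to 3034, 8240.1, 7149.9, 5562 and 10421 CPM in DMM replicates 1 to 5. PBS replicate 3 was near the top of all 10 libraries on this list and DMM replicate 1 among the low ones. Median log2 fold changes of the list were 0.72 over all 10 and 1.52 over the 8 libraries, and 3 of its genes were called higher over the 8. Of the other lists, the medians over the 10 and the 8 libraries were 0.08 and -0.04 for podocytes and -0.05 and -0.07 for endothelium. For the smooth muscle and ureter wall list they were -0.17 and -0.67, and for macrophages -0.61 and -0.65. The loop and distal tubule list, led by Umod, had 0.69 and 1.24 with 3 genes called higher over the 8, and the collecting duct list, led by Aqp2, had 0.47 and 0.74 with 2 called higher. The T cell list, led by Cd4, had -0.94 and -1.21 with 1 gene called lower. The urothelium list, led by Krt20, had -0.26 and -0.38. Of the adipocyte list, led by Fabp4, and the adrenal cortex list, led by Star, 1 gene each was tested over all 10 libraries, with 0.15 and 0.19 for the first and -0.34 and -0.43 for the second. The adipocyte list summed to 25.2, 50.4, 38.8, 105 and 31.8 CPM in PBS replicates 1 to 5 and to 36.8, 46.4, 55.4, 36.4 and 68.0 CPM in DMM replicates 1 to 5. PBS replicate 4, which also had the largest fibrillar share, was the highest. DMM replicates 5 and 3 came next on this list, and their fibrillar shares, 0.359% and 0.314%, were the lowest of all libraries. 3 untested genes of the list, named after their values were seen, were at 12.2 CPM for Adipoq, 6.92 for Plin1 and 8.03 for Cidec in PBS replicate 4. In PBS replicate 2 they were at 2.06, 0.942 and 3.12 CPM, and lower in the other 8 libraries. Smtn led the smooth muscle list and C1qb the macrophage list, and 3 and 2 of their genes were called lower over the 8. Of all tested genes, 3.56% were called lower and 2.73% higher over the 8, to set beside the counts of these lists.

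The fibrillar chains form the banded fibers of scar and interstitium. Of 11 such genes, 10 were tested. Their median log2 fold change was -0.47 over all 10 libraries, with 7 of 10 below 0 and 0 called, and -0.99 over the 8, with 10 of 10 below 0 and 4 called lower, against 47.6% and 3.56% of all genes. Relative to the mean of the PBS group, the median of the class stood at -0.25, 0.09, -0.70, 0.60 and 0.18 on the log2 scale in PBS replicates 1 to 5. It stood at 0.53, -0.69, -1.20, -0.35 and -0.85 in DMM replicates 1 to 5. PBS replicate 3 was as low as DMM replicate 2, and DMM replicate 1 was nearly as high as PBS replicate 4.

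The chains of collagen I, the main collagen of scar tissue, are encoded by Col1a1 (chromosome 11, 94936224 to 94953042, build mm10) and Col1a2 (chromosome 6, 4504814 to 4541544). Col1a1 was at 1841, 2661, 1284, 4045 and 2609.7 CPM in PBS replicates 1 to 5 and at 3299, 1329, 895, 2047 and 1055 CPM in DMM replicates 1 to 5. PBS replicate 4 was the highest, PBS replicate 3 the lowest of its group, and DMM replicate 1 was above all PBS libraries but replicate 4. Of 5 DMM libraries, 4 lay below the PBS mean, and the groups overlapped over both sets of libraries. Col1a1 had a log2 fold change of -0.53 in the 10 libraries (standard error 0.39, edgeR's adjusted p = 0.594) and of -1.07 over the 8 (standard error 0.31, adjusted p = 0.0750). Over the 8 it was not called by this test, but was by DESeq2 at -1.06 (DESeq2's adjusted p = 0.0113) and by edgeR with library size alone (adjusted p = 0.0368). With 1 of the 10 libraries left out the value of -0.53 ran from -0.90 without DMM replicate 1 to -0.28 without PBS replicate 4. Col1a2 was at 1753, 2468, 1330.1, 3241 and 2312 CPM in PBS replicates 1 to 5 and at 2746, 1321, 865, 1334 and 999 CPM in DMM replicates 1 to 5. DMM replicates 2 and 4 were at the level of PBS replicate 3 and DMM replicates 3 and 5 below it. The groups did not overlap over the 8 libraries and did over all 10, with 4 of 5 DMM libraries below the PBS mean. Col1a2 had a log2 fold change of -0.61 in the 10 libraries (standard error 0.33, edgeR's adjusted p = 0.513) and of -1.11 over the 8 (standard error 0.22, adjusted p = 0.0207). The FPKM ratio of Col1a1 to Col1a2 was 1.99, 2.04, 1.83, 2.36 and 2.14 in PBS replicates 1 to 5 and 2.27, 1.90, 1.96, 2.91 and 1.999 in DMM replicates 1 to 5. Only DMM replicate 4 was outside the range of the PBS libraries, above it.

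Col3a1 (chromosome 1, 45311538 to 45349706) encodes the chain of collagen III, which forms mixed fibrils with collagen I. Col3a1 was at 1954, 3309.5, 1692, 5446 and 2965 CPM in PBS replicates 1 to 5 and at 3599.5, 1708, 1099, 2735 and 1239.9 CPM in DMM replicates 1 to 5. PBS replicate 4 and DMM replicate 1 were the highest and DMM replicates 3 and 5 the lowest, with overlap over both sets of libraries. With 4 of 5 DMM libraries below the PBS mean, Col3a1 had a log2 fold change of -0.57 in the 10 libraries (standard error 0.39, edgeR's adjusted p = 0.576) and of -1.01 over the 8 (standard error 0.37, adjusted p = 0.148). Leaving out 1 of the 10 moved the first value to between -0.86 without DMM replicate 1 and -0.26 without PBS replicate 4. The FPKM ratio of Col3a1 to Col1a1 stayed between 0.7097 and 0.900 in all 10 libraries, while Col1a1 itself ranged from 895 to 4045 CPM.

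Collagen V is a minor fibrillar collagen that sets the start and width of collagen I fibrils. Col5a1 was at 235, 313, 176, 439.7 and 353 CPM in PBS replicates 1 to 5 and at 451, 189, 135, 213 and 154 CPM in DMM replicates 1 to 5. The highest library was DMM replicate 1, and the other 4 DMM libraries lay below every PBS library but replicate 3. With 4 of 5 DMM libraries below the PBS mean, Col5a1 (chromosome 2, 27886425 to 28039514) had a log2 fold change of -0.41 in the 10 libraries (standard error 0.34, edgeR's adjusted p = 0.635) and of -0.96 over the 8 (standard error 0.22, adjusted p = 0.0316). Col5a2, which encodes its partner chain, was at 305, 352, 202, 508 and 381 CPM in PBS replicates 1 to 5 and at 425, 206, 133, 192 and 155 CPM in DMM replicates 1 to 5. DMM replicate 1 was inside the PBS range, DMM replicate 2 lay next to PBS replicate 3, and the groups of the 8 libraries did not overlap. With 4 of 5 DMM libraries below the PBS mean, Col5a2 (chromosome 1, 45374321 to 45503282) had a log2 fold change of -0.65 in the 10 libraries (standard error 0.33, edgeR's adjusted p = 0.494) and of -1.17 over the 8 (standard error 0.20, adjusted p = 0.0110). Its adjusted p over the 8 libraries was the smallest of all members. The third chain, Col5a3, was outside the genes set to be named and is given for the family, with log2 fold changes of 0.05 over all 10 libraries (edgeR's adjusted p = 0.964) and -0.49 over the 8 (adjusted p = 0.423).

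Collagen XI is a minor fibrillar collagen best known from cartilage, where it lies in the core of the fibrils. Col11a1 was at 7.63, 14.5, 7.48, 14.2 and 16.4 CPM in PBS replicates 1 to 5 and at 16.7, 6.43, 4.31, 5.98 and 6.504 CPM in DMM replicates 1 to 5. Again DMM replicate 1 was the highest, while DMM replicates 2 to 5 were below every PBS library. Col11a1 (chromosome 3, 114030540 to 114220718), at 76 to 279 counts per library, had a log2 fold change of -0.59 in the 10 libraries (standard error 0.37, edgeR's adjusted p = 0.552) and of -1.18 over the 8 (standard error 0.26, adjusted p = 0.0287), with 4 of 5 DMM libraries below the PBS mean. The other tested fibrillar genes, Col11a2, Col24a1 and Col27a1, had log2 fold changes of 0.05, 0.10 and -0.30 over all 10 libraries and of -0.29, -0.21 and -0.35 over the 8, so the sign of Col11a2 and Col24a1 differed between the sets. None of them passed an unadjusted p under 0.05 over either set.

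**Figure D2:**
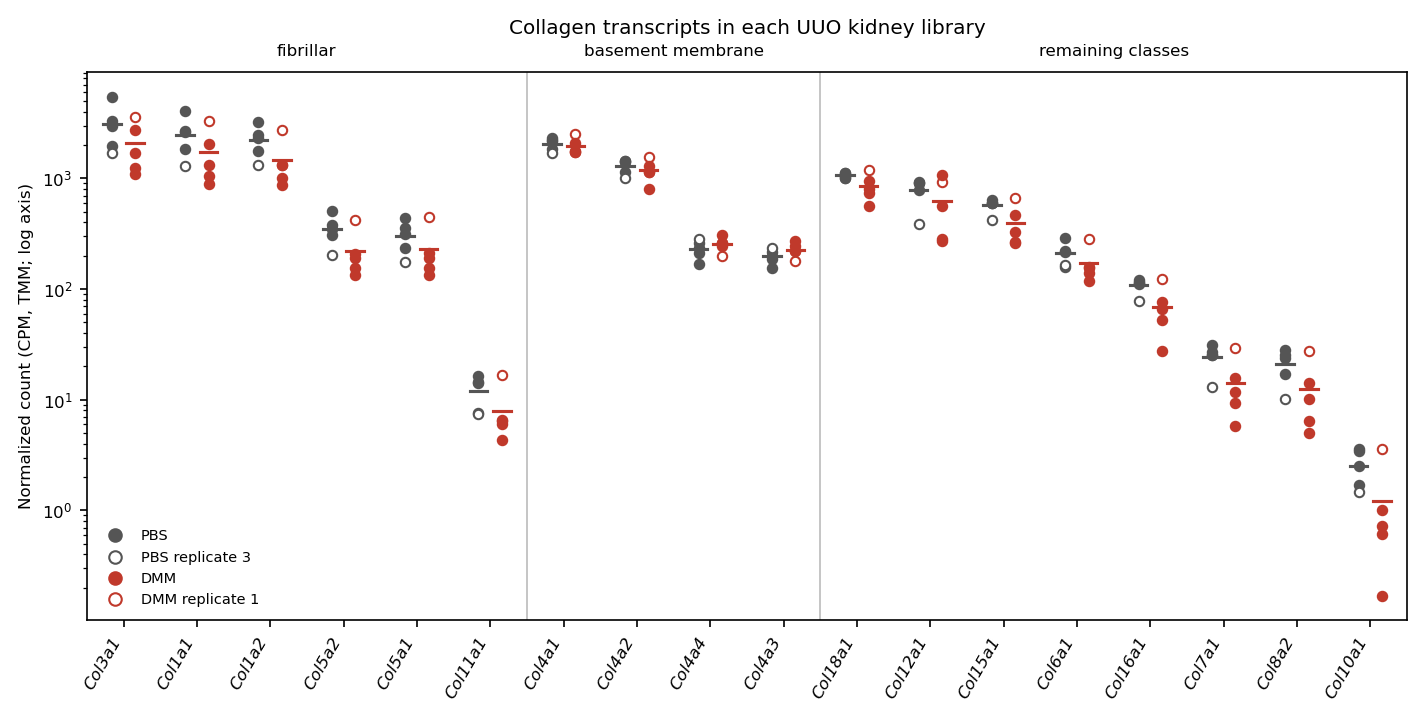
Normalized count (CPM after TMM, log axis) of 18 collagen genes in each library, with PBS in gray, DMM in red, horizontal bars at the means of 5 libraries, and open symbols for PBS replicate 3 and DMM replicate 1. For Col1a2, DMM replicate 1 is at 2746 CPM and the other DMM libraries are between 865 and 1334, while Col4a1 spans 1694 to 2497 CPM over all 10.

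Fold changes of the basement membrane chains lay nearer 0, and the difference between the classes was not tested. All 6 collagen IV genes were tested, and 0 were called over either set of libraries by edgeR, with 0 more than 1.5-fold apart at unadjusted p under 0.05 and 0 by DESeq2. Of all genes, edgeR called 0% over the 10, and 3.56% lower and 2.73% higher over the 8. At unadjusted p the shares were 4.11% and 1.91% over the 10 and 7.24% and 6.45% over the 8. DESeq2 called 0.194% and 0.0545% over the 10 and 5.4% and 4.65% over the 8. With 6 genes, counts of 0 are near these shares. Their median log2 fold change was -0.09 over all 10 and -0.20 over the 8 libraries, within a range of -0.38 to 0.34 over the 8. The class median relative to the PBS mean was 0.17, 0.11, 0.21, -0.29 and -0.09 on the log2 scale in PBS replicates 1 to 5. It was -0.18, 0.03, -0.19, -0.26 and -0.13 in DMM replicates 1 to 5, all within the range of the PBS libraries.

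Col4a1 and Col4a2 (chromosome 8, 11198423 to 11312826 and 11312805 to 11449287) encode the chains found in almost every basement membrane and start head to head. Their annotated spans overlap by 22 bases on opposite strands. Col4a1 was at 1839, 2320.0, 1694, 2194 and 2235 CPM in PBS replicates 1 to 5 and at 2497, 2071, 1771, 1741 and 1719.5 CPM in DMM replicates 1 to 5. DMM replicate 1 was the highest and PBS replicate 3 the lowest, and the groups overlapped over both sets. Col4a1 had a log2 fold change of -0.07 in the 10 libraries (standard error 0.15, edgeR's adjusted p = 0.862) and of -0.23 over the 8 (standard error 0.13, adjusted p = 0.349), with 3 of 5 DMM libraries below the PBS mean. Col4a2 was at 1151, 1421, 1014, 1405 and 1422 CPM in PBS replicates 1 to 5 and at 1553, 1298, 1132, 796 and 1137 CPM in DMM replicates 1 to 5. DMM replicate 4 was the lowest and DMM replicate 1 the highest, with overlap over both sets. Col4a2 had a log2 fold change of -0.12 in the 10 libraries (standard error 0.18, edgeR's adjusted p = 0.807) and of -0.31 over the 8 (standard error 0.17, adjusted p = 0.335), with 3 of 5 DMM libraries below the PBS mean. The standard errors of both genes over all 10 libraries were smaller than that of Col1a1.

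Col4a3, Col4a4 and Col4a5 encode the chains of the mature glomerular basement membrane, whose loss underlies Alport syndrome. Col4a4 and Col4a3 also start head to head (chromosome 1, 82448423 to 82586849, and 82586921 to 82722059), with 71 bases between them. Col4a3 was at 216, 199.6, 236, 154 and 185 CPM in PBS replicates 1 to 5 and at 178, 219.8, 219.6, 271 and 244 CPM in DMM replicates 1 to 5. Here PBS replicate 3 was high and DMM replicate 1 low for their groups, the reverse of the fibrillar genes. Over the 8 libraries each DMM library lay above each PBS library, and Col4a3 had a log2 fold change of 0.19 in the 10 libraries (standard error 0.14, edgeR's adjusted p = 0.602) and of 0.34 over the 8 (standard error 0.14, adjusted p = 0.191), with 4 of 5 DMM libraries above the PBS mean. Col4a4 was at 263, 237, 281, 167 and 213 CPM in PBS replicates 1 to 5 and at 197, 246, 258, 308 and 258 CPM in DMM replicates 1 to 5. PBS replicate 4 was the lowest and DMM replicate 4 the highest, and the groups overlapped over both sets. Col4a4 had a log2 fold change of 0.13 in the 10 libraries (standard error 0.16, edgeR's adjusted p = 0.760) and of 0.28 over the 8 (standard error 0.16, adjusted p = 0.345), with 4 of 5 DMM libraries above the PBS mean. The FPKM ratio of Col4a3 to Col4a4 was between 0.875 and 1.01 in all 10 libraries. Col4a3 also overlaps C430014B12Rik on the opposite strand, which was at 0.874 CPM on average.

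Col4a5 and Col4a6 form the remaining head-to-head pair, on chromosome X with 1308 bases between their start sites, and were examined after their values had been seen. Col4a6 was at 19.0, 17.1, 18.6, 11.5 and 11.2 CPM in PBS replicates 1 to 5 and at 11.7, 12.6, 10.8, 10.9 and 10.8 CPM in DMM replicates 1 to 5. PBS replicates 1 to 3 were high, and PBS replicates 4 and 5 were at the level of the DMM libraries. Col4a6 was the only member with an unadjusted p under 0.05 over all 10 libraries at any fold change by edgeR, and its log2 fold changes were -0.45 over all 10 libraries (edgeR's adjusted p = 0.408) and -0.38 over the 8 (adjusted p = 0.313). Those of Col4a5 were -0.20 over all 10 libraries (edgeR's adjusted p = 0.526) and -0.16 over the 8 (adjusted p = 0.540).

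**Figure D3:**
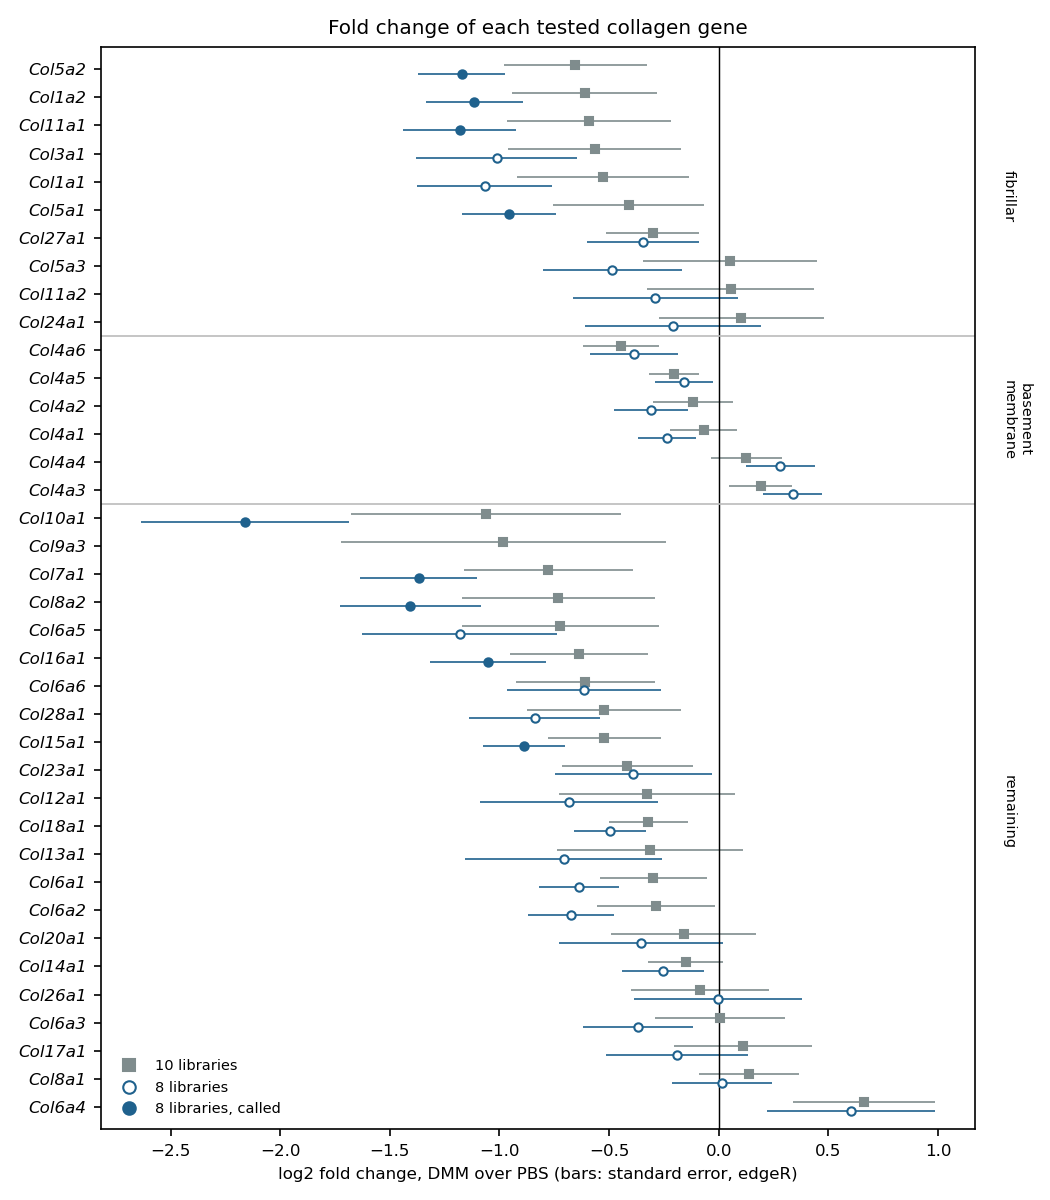
Log2 fold change, DMM over PBS, of each tested collagen gene by class, over all 10 libraries (squares) and over the 8 libraries (circles, filled where called), with bars for the standard error from edgeR. Fibrillar genes have a median of -0.99 over the 8 libraries and collagen IV genes of -0.20.

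Among the remaining classes, 22 of 27 genes were tested over all 10 libraries and 21 over the 8. Their median log2 fold change was -0.32 over all 10, with 18 of 22 below 0 and 0 called, and -0.64 over the 8, with 19 of 21 below 0 and 5 called lower, against 47.6% and 3.56% of all genes. Collagens XV and XVIII, the multiplexins, are heparan or chondroitin sulfate proteoglycans of vascular and epithelial basement membrane zones. Col18a1, the precursor of endostatin, was at 1129, 1049.8, 1009, 1008 and 1115 CPM in PBS replicates 1 to 5 and at 1200.1, 945, 804, 562 and 739 CPM in DMM replicates 1 to 5. The PBS libraries lay in a narrow band, and DMM replicate 4 was the lowest and DMM replicate 1 the highest of all. The groups of the 8 libraries did not overlap, and Col18a1 (chromosome 10, 77052178 to 77166548) had a log2 fold change of -0.32 in the 10 libraries (standard error 0.18, edgeR's adjusted p = 0.526) and of -0.50 over the 8 (standard error 0.16, adjusted p = 0.113), with 4 of 5 DMM libraries below the PBS mean. It overlaps Slc19a1 on the opposite strand, which was at 59.9 CPM on average. Col15a1 was at 604, 634, 418, 598 and 604 CPM in PBS replicates 1 to 5 and at 672, 464, 259, 328 and 269 CPM in DMM replicates 1 to 5. The highest value was that of DMM replicate 1, PBS replicate 3 lay below DMM replicate 2, and the groups of the 8 libraries did not overlap. Col15a1 (chromosome 4, 47208161 to 47313167) had a log2 fold change of -0.52 in the 10 libraries (standard error 0.26, edgeR's adjusted p = 0.491) and of -0.89 over the 8 (standard error 0.19, adjusted p = 0.0256), with 4 of 5 DMM libraries below the PBS mean.

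Collagen VI forms beaded microfilaments close to cells. Col6a1 was at 159.7, 215, 165, 288 and 222 CPM in PBS replicates 1 to 5 and at 284, 139, 154, 119 and 157 CPM in DMM replicates 1 to 5. PBS replicate 4 and DMM replicate 1 were level, and the other DMM libraries lay below every PBS library. Col6a1 (chromosome 10, 76708792 to 76726168) had a log2 fold change of -0.30 in the 10 libraries (standard error 0.25, edgeR's adjusted p = 0.629) and of -0.64 over the 8 (standard error 0.18, adjusted p = 0.0734), with 4 of 5 DMM libraries below the PBS mean. DESeq2 called it over the 8 (DESeq2's adjusted p = 0.0174). The other chains of the class were outside the genes set to be named and are given as a family. Over all 10 libraries their log2 fold changes were -0.29 for Col6a2, 0.01 for Col6a3, 0.66 for Col6a4, -0.72 for Col6a5 and -0.61 for Col6a6. Over the 8, in the same order, they were -0.67, -0.37, 0.61, -1.18 and -0.61, with Col6a3 below 0 over the 8 only. Col6a4 had the highest value of all members over both sets, with an adjusted p of 0.488 over all 10 and 0.409 over the 8 libraries (edgeR). The FPKM ratio of Col6a1 to Col6a2 lay between 2.29 and 2.63 in all libraries. That of Col6a3 to Col6a1 was 1.69 in DMM replicate 4 and between 0.603 and 0.885 in the other 9.

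The FACIT chains bind to the surface of fibrils. Col12a1, found in tissue under tension, was at 926, 899, 386, 779.6 and 916 CPM in PBS replicates 1 to 5 and at 918, 567, 271, 1075 and 283 CPM in DMM replicates 1 to 5. DMM replicate 4 was the highest of all libraries and DMM replicates 3 and 5 the lowest, and PBS replicate 3 lay far below its group. Col12a1 (chromosome 9, 79598991 to 79718831) had a log2 fold change of -0.33 in the 10 libraries (standard error 0.40, edgeR's adjusted p = 0.749) and of -0.68 over the 8 (standard error 0.41, adjusted p = 0.376), with 3 of 5 DMM libraries below the PBS mean. Without DMM replicate 4, its log2 fold change over the other 7 of the 8 libraries was -1.24 and passed the call (edgeR's adjusted p = 0.00550). Col16a1 was at 113, 117, 77.4, 121 and 112 CPM in PBS replicates 1 to 5 and at 124, 76.6, 52.9, 27.8 and 66.0 CPM in DMM replicates 1 to 5. The PBS libraries other than replicate 3 were close together, and DMM replicate 4 was the lowest of all. Col16a1 (chromosome 4, 130047840 to 130099283) had a log2 fold change of -0.64 in the 10 libraries (standard error 0.31, edgeR's adjusted p = 0.490) and of -1.05 over the 8 (standard error 0.26, adjusted p = 0.0477), with 4 of 5 DMM libraries below the PBS mean. The call over the 8 was lost with library size alone, at a log2 fold change of -1.14 (edgeR's adjusted p = 0.0575). Over the 8 libraries Col16a1 was 1 of 4 tested FACIT genes and the only member of that class called. Of all tested genes, 3.56% were called lower and 2.73% higher over the 8.

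Collagen VII forms the anchoring fibrils that tie epithelial basement membranes to the stroma. Col7a1 was at 25.5, 25.5, 12.9, 31.4 and 27.1 CPM in PBS replicates 1 to 5 and at 29.1, 15.6, 5.84, 9.30 and 11.7 CPM in DMM replicates 1 to 5. DMM replicates 2 to 5 were below every PBS library but replicate 3, and DMM replicate 1 was below PBS replicate 4 alone. Col7a1 (chromosome 9, 108953586 to 108984875) had a log2 fold change of -0.78 in the 10 libraries (standard error 0.38, edgeR's adjusted p = 0.491) and of -1.37 over the 8 (standard error 0.27, adjusted p = 0.0191), with 4 of 5 DMM libraries below the PBS mean. The short-chain collagens VIII and X form hexagonal networks. Col8a2 was at 17.1, 28.4, 10.2, 25.2 and 23.8 CPM in PBS replicates 1 to 5 and at 27.4, 14.2, 6.40, 4.95 and 10.2 CPM in DMM replicates 1 to 5. Again DMM replicate 1 lay within the PBS range and PBS replicate 3 within the DMM range, and Col8a2 (chromosome 4, 126286793 to 126314330) had a log2 fold change of -0.73 in the 10 libraries (standard error 0.44, edgeR's adjusted p = 0.538) and of -1.41 over the 8 (standard error 0.32, adjusted p = 0.0340), with 4 of 5 DMM libraries below the PBS mean. Its partner chain Col8a1 had log2 fold changes of 0.14 over all 10 libraries (edgeR's adjusted p = 0.818) and 0.01 over the 8 (adjusted p = 0.979).

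Col10a1, the collagen of hypertrophic cartilage, had the lowest fold change of the members over both sets but rested on 3 to 61 counts per library. Col10a1 was at 1.69, 3.47, 1.46, 2.50 and 3.59 CPM in PBS replicates 1 to 5 and at 3.58, 1.01, 0.170, 0.725 and 0.608 CPM in DMM replicates 1 to 5. At the top of the PBS range was DMM replicate 1, and the other DMM libraries were below all PBS libraries. Col10a1 (chromosome 10, 34389981 to 34397085) had a log2 fold change of -1.06 in the 10 libraries (standard error 0.62, edgeR's adjusted p = 0.533) and of -2.16 over the 8 (standard error 0.48, adjusted p = 0.0296), with 4 of 5 DMM libraries below the PBS mean. The gene lies within Nt5dc1 on the opposite strand, which was at 27.0 CPM on average against 1.88 for Col10a1. Whether counting used strand is not given in the sources used here, so reads of the pair cannot be told apart. The 20 tested members not given in full ranged from -0.98 to 0.66 over all 10 libraries, with 13 below 0, and from -1.18 to 0.61 over the 8.

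Chains of collagen are hydroxylated, folded, exported, trimmed and cross-linked by other proteins, and 64 genes for these steps, for fibril-binding proteins, receptors and breakdown were taken as a list, of which 62 were tested. Tll2 and Gp6 were not tested. Over all 10 libraries 0 of 62 were called by edgeR in either direction, with 1 lower and 0 higher more than 1.5-fold apart at unadjusted p under 0.05, against 4.11% and 1.91% of all genes. DESeq2 called 0, against 0.194% and 0.0545% of all genes. Over the 8 libraries 11 were called lower and 0 higher, against 3.56% and 2.73% of all genes, with 18 lower and 0 higher at unadjusted p, against 7.24% and 6.45%. Over the 8, DESeq2 called 15 lower and 0 higher, against 5.4% and 4.65% of all genes. The median log2 fold change was -0.20 over all 10 and -0.44 over the 8, with 45 and 51 genes below 0, against a median of 0.02 for all genes over either set. The number called over the 8 ranged from 2 to 18 when 1 of these libraries was left out, with 2 without PBS replicate 2, 4 or 5 or DMM replicate 3 or 5, 7 without PBS replicate 1, 11 without DMM replicate 2 and 18 without DMM replicate 4. The share of all genes called lower in these fits ran from 1.63% without PBS replicate 5 to 3.38% without DMM replicate 2 and 7.61% without DMM replicate 4. From all 10 libraries, leaving out DMM replicate 1 alone gave 3 calls, against 2.6% of all genes.

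In hydroxylation, P4ha1, a catalytic subunit of prolyl 4-hydroxylase, had log2 fold changes of -0.26 over all 10 libraries (edgeR's adjusted p = 0.491) and -0.35 over the 8 (adjusted p = 0.175). P3h4, a partner of lysyl hydroxylase, had -0.36 over all 10 libraries (edgeR's adjusted p = 0.468) and -0.56 over the 8 (adjusted p = 0.0486), a change below the fold needed for a call. In export, Mia2 and Mia3 help bulky procollagen out of the endoplasmic reticulum. Mia3 was at 68.2, 67.9, 66.3, 66.7 and 69.0 CPM in PBS replicates 1 to 5 and at 75.2, 73.0, 71.0, 107 and 69.7 CPM in DMM replicates 1 to 5. DMM replicate 4 was far above all other libraries, and each DMM library lay above each PBS library. Mia3 was the only gene of 62 tested whose groups did not overlap over all 10 libraries. Of all tested genes, 0.794% did not overlap with DMM above and 1.16% with DMM below. Its log2 fold changes were 0.23 over all 10 libraries (edgeR's adjusted p = 0.518) and 0.24 over the 8 (adjusted p = 0.408), with 5 of 5 DMM libraries above the PBS mean. Mia2 had 0.37 over all 10 libraries (edgeR's adjusted p = 0.458) and 0.57 over the 8 (adjusted p = 0.0489), higher in 4 of 5 DMM libraries than the PBS mean.

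In trimming, Bmp1 removes the C-propeptide of fibrillar procollagens. Bmp1 was at 135, 164, 89.9, 193 and 158 CPM in PBS replicates 1 to 5 and at 169, 107, 73.0, 93.2 and 87.0 CPM in DMM replicates 1 to 5. DMM replicate 1 lay within the PBS range, PBS replicate 3 within the DMM range, and the groups of the 8 libraries did not overlap. Bmp1 had a log2 fold change of -0.49 in the 10 libraries (standard error 0.25, edgeR's adjusted p = 0.5005) and of -0.85 over the 8 (standard error 0.15, adjusted p = 0.0139), with 4 of 5 DMM libraries below the PBS mean. Pcolce2, an enhancer of that step, had -0.42 over all 10 libraries (edgeR's adjusted p = 0.513) and -0.58 over the 8 (adjusted p = 0.211). In cross-linking, Lox and Loxl3 oxidize lysine residues of collagen. The log2 fold changes of Lox were -0.19 over all 10 libraries (edgeR's adjusted p = 0.693) and -0.38 over the 8 (adjusted p = 0.262), and those of Loxl3 were -0.42 over all 10 libraries (edgeR's adjusted p = 0.553) and -0.83 over the 8 (adjusted p = 0.0223). Among fibril-binding proteins, the small proteoglycan Lum had -1.10 over all 10 libraries (edgeR's adjusted p = 0.468) and -1.80 over the 8 (adjusted p = 0.0477), and the cartilage protein Comp, at most 5.37 CPM in any library, had -1.62 over all 10 libraries (edgeR's adjusted p = 0.490) and -2.11 over the 8 (adjusted p = 0.224).

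Among receptors, the integrin chain Itga10 had -0.61 over all 10 libraries (edgeR's adjusted p = 0.467) and -0.75 over the 8 (adjusted p = 0.228). Lair1, an inhibitory collagen receptor of leukocytes, was at 30.4, 32.3, 28.1, 30.3 and 32.2 CPM in PBS replicates 1 to 5 and at 28.2, 19.0, 20.1, 23.9 and 17.9 CPM in DMM replicates 1 to 5. Just above PBS replicate 3, the lowest PBS library, lay DMM replicate 1, and the other 4 DMM libraries were below all PBS libraries. Lair1 had a log2 fold change of -0.49 in the 10 libraries (standard error 0.13, edgeR's adjusted p = 0.378) and of -0.63 over the 8 (standard error 0.12, adjusted p = 0.0192), with 5 of 5 DMM libraries below the PBS mean. Mmp2, a gelatinase that degrades denatured collagen, was at 205, 162, 125, 171 and 191 CPM in PBS replicates 1 to 5 and at 179, 102, 49.9, 33.1 and 81.6 CPM in DMM replicates 1 to 5. DMM replicates 2 to 5 were below every PBS library and DMM replicate 1 was within the PBS range. Mmp2 had a log2 fold change of -0.94 in the 10 libraries (standard error 0.38, edgeR's adjusted p = 0.418) and of -1.45 over the 8 (standard error 0.31, adjusted p = 0.0274), with 4 of 5 DMM libraries below the PBS mean. Timp2, an inhibitor and cofactor of matrix metalloproteinases, had -0.42 over all 10 libraries (edgeR's adjusted p = 0.513) and -0.71 over the 8 (adjusted p = 0.0547). The other genes called lower over the 8, named after their values were seen, were P4ha3, Serpinh1, Adamts2, Bgn, Postn and Mmp14, with log2 fold changes between -1.78 and -0.72 over the 8.

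RefSeq promoter sequence (build GRCm38.p6) was matched by symbol for 35 of 44 members and not for Col12a1, Col14a1, Col1a1, Col22a1, Col26a1, Col2a1, Col4a3, Col5a2 and Col9a3. Of the 9 members called lower over the 8 libraries, 8 had an entry, and in 5 the RefSeq start was the deposited gene start. The 100 bases before the start of these 5 are shown because the genes were called together over the 8 libraries while lying on different chromosomes. Capitals mark 3 motifs, searched on both strands, and no match overlaps another in the windows shown. The letters CCAAT were held by 18.8% of 32418 distinct promoter windows of this length and by 4 of 38 windows of members. The letters TATAAA were held by 5.55% of all windows and by 2 of the members' windows, and GGGCGG by 24.9% and by 18. Each match is a description of letters in the window. In Col11a1 the first and the last of these motifs were found, in Col5a1 and Col7a1 the last, in Col10a1 the second, and in Col16a1 none of them.
Col5a1 (chr2:27886325-27886424, + strand): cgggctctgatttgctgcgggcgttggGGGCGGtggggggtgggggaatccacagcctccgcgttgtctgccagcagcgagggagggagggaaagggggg
Col11a1 (chr3:114030440-114030539, + strand): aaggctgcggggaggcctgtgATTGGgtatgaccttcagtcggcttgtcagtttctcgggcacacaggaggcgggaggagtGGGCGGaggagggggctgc
Col16a1 (chr4:130047740-130047839, + strand): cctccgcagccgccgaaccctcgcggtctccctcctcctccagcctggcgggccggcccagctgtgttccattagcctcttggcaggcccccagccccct
Col10a1 (chr10:34389881-34389980, + strand): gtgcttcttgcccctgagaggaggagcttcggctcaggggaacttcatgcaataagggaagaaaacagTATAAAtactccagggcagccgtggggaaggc
Col7a1 (chr9:108953486-108953585, + strand): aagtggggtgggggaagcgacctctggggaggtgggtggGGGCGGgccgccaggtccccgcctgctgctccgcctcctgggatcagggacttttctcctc

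The 71 bases between the starts of Col4a4 and Col4a3 are shown because both genes, which are read in opposite directions from it, had FPKM within a narrow range of ratios in these libraries. It is printed 5′ to 3′ on the minus strand, the direction of Col4a4, from the RefSeq entry of Col4a4 (build GRCm38.p6). Its GC content was 69.0%, and it held none of the motifs searched for, so no letter is in capitals. A narrow range was not particular to this pair. The ratio of Col6a1 to Col6a2, which do not start head to head, lay between 2.29 and 2.63.
Col4a4-Col4a3 (chr1:82586850-82586920, - strand): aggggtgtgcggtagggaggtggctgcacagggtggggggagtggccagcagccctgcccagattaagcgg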

How the data were processed

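Total RNA of whole kidneys was sequenced in 10 libraries with total counts of 15722527 to 19475833. The deposited table holds, per gene, raw read counts, FPKM (by the authors, count per gene length and library size) and group means of signal (by the authors, counts divided by DESeq2 size factors). The reads had been aligned with HISAT2 2.0.5 according to the submitters' processing notes. The counting tool, annotation release and strandedness are not given in the sources used here. The authors' log2 fold change, p-value and adjusted p columns (3) were not used, and 0 per-sample columns were left unused. The counts were tested in edgeR 4.0.16 (limma 3.58.1, R 4.3.3) with filterByExpr, TMM and the quasi-likelihood F test, without covariates. CPM used TMM library sizes. DESeq2 1.42.0 was the other tool. Figures and sequences used Python 3.11.15, pandas 2.3.3 and matplotlib 3.10.9. The fits were tested on simulated data.

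Members and lists were chosen with earlier results of these data known. Genes given in full were, in each of the fibrillar, basement membrane and remaining classes, the 4 tested members of highest mean FPKM. Added to them were members more than 1.5-fold apart at unadjusted p under 0.05 over all 10 libraries, and members called over the 8. Of the pathway list, these were the 2 genes of smallest p in each sublist over all 10. Of the marker lists, the most abundant gene was named. Alternatives tried were the 8 libraries, leaving out each library, a replicate block, DESeq2, scaling by RLE or by library size alone, 2 other low-count filters and an adjusted p under 0.1. Correction for GC content and length, and leaving out each of the 8 libraries or using RLE size factors with them, were chosen after seeing the data. The Wilson intervals cover counting error only.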

Additional observations from a re-analysis of the deposited data

Results flagged for a closer look

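In 17 of 96 groups of 5 libraries, 1 library lay apart from the others by more than Dixon's 95% critical value of 0.71 for the gap over the range. Chance gives about 1 in 20 such groups, but the groups are not independent because they share libraries. Some of the genes were also chosen because they were called once PBS replicate 3 and DMM replicate 1 were left out, which favors groups where these libraries lie apart. The count is therefore a description and no fair comparison with chance. DMM replicate 1 was that library in 8 of them, PBS replicate 3 in 5, DMM replicate 4 in 3 and another library in 1. The causes were not tested.

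DMM replicate 1 was the highest of its group for Col1a2 at 2746 CPM with the next at 1334, Col5a1 at 450.7 CPM with the next at 213 and Col5a2 at 424.5 CPM with the next at 205.9. It was also the highest for Col11a1 at 16.73 CPM with the next at 6.504, Col6a1 at 284 CPM with the next at 156.9, Col10a1 at 3.58 CPM with the next at 1.008 and Loxl3 at 45 CPM with the next at 26.1. Its share of counts on collagen genes was 2.03%, with the next DMM library at 1.19%. PBS replicate 3 was the lowest of its group for Col12a1 at 386.5 CPM with the next at 779.6, Col16a1 at 77.42 CPM with the next at 111.8, Col15a1 at 418.2 CPM with the next at 598.2 and Timp2 at 357.3 CPM with the next at 452.6. Its share of counts on the remaining collagen classes was 0.281%, with the next PBS library at 0.391%.

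DMM replicate 4 was the highest of its group for Mia3 at 107.5 CPM with the next at 75.18. Its FPKM ratio of Col4a1 to Col4a2 was 1.94 with the next at 1.43, and that of Col6a3 to Col6a1 was 1.69 with the next at 0.885. PBS replicate 4 was the highest of its group for Comp at 5.373 CPM with the next at 1.825.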

How the results depend on the processing

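No collagen gene was called higher in any of the 31 alternatives, by edgeR or DESeq2, and at most 1 was higher by more than 1.5-fold at unadjusted p under 0.05. Of all genes, 0% were called higher in the edgeR fits over all 10 libraries and 0.0545% by DESeq2, so a count of 0 there says nothing particular to collagens. Over the 8 the share was 2.73%, and it ran from 0.774% without PBS replicate 5 to 6.71% without DMM replicate 4. At unadjusted p, 1.91% of all genes were higher over the 10 and 6.45% over the 8. The medians of the fibrillar, basement membrane and remaining classes were below 0 in all 30 alternatives that gave them. Of 540 fold changes of the 18 collagen genes given in full, 459 kept direction and side of the threshold, 81 passed it and 0 reversed. These 18 include the 9 members called over the 8 libraries, and the alternatives share libraries. The counts are therefore a description and no support for the direction. Outside the 18, Col5a3, Col11a2, Col24a1, Col6a3 and Col17a1 were above 0 over all 10 libraries and below 0 over the 8. The number of collagen genes called lower was 0 over all 10 libraries with edgeR, DESeq2 and every other scaling, filter and threshold tried. It was 9 over the 8 libraries, 12 with DESeq2, 9 with library size alone, 10 with correction for GC content and length and 9 with RLE size factors. The shares of all genes called lower in these fits were 3.56%, 5.4%, 4.23%, 4.14% and 3.46%. DESeq2 added Col1a1, Col6a1 and Col6a2 to the 9, and the GC and length correction added Col12a1. Library size alone added Col1a1 and lost Col16a1, whose log2 fold change there was -1.14. With 1 library left out the collagen count was 0 from the 10 libraries and 1 to 16 from the 8. Pathway genes called lower numbered 11 over the 8 libraries, 15 with DESeq2, 13 with library size alone, 11 with the GC and length correction and 10 with RLE size factors, against the same shares of all genes. With the GC and length correction 1 was called higher, against 4.75% of all genes. With 1 library left out the pathway count was 0 to 3 from the 10 libraries and 2 to 18 from the 8. The cause was not tested.

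Library size alone over the 8 moved the median of all genes from 0.02 to -0.09, and gave medians of -1.12 for fibrillar, -0.31 for basement membrane and -0.74 for remaining genes. Relative to all genes these were -1.03, -0.21 and -0.65. It called 700 of all genes lower and 276 higher, the GC and length correction 685 and 786, against 590 and 452 with TMM. With 1 library left out of the 10 or the 8, the medians ranged from -0.68 to -0.22 for all collagen genes (-0.64 without PBS replicate 1 of the 8), -1.15 to -0.27 for fibrillar (-1.14 without DMM replicate 4 of the 8), -0.25 to -0.02 for basement membrane and -0.71 to -0.28 for remaining genes. With 1 of the 10 left out, log2 fold changes of other fibrillar chains ran from -0.98 without DMM replicate 1 to -0.44 without PBS replicate 4 for Col1a2, -0.81 without DMM replicate 1 to -0.24 without PBS replicate 4 for Col5a1, -1.03 without DMM replicate 1 to -0.48 without PBS replicate 4 for Col5a2 and -1.05 without DMM replicate 1 to -0.43 without DMM replicate 3 for Col11a1. Those of other classes ran from -0.17 without DMM replicate 1 to -0.01 without PBS replicate 2 for Col4a1, -0.24 without DMM replicate 1 to 0.00 without DMM replicate 4 for Col4a2, 0.11 without PBS replicate 4 to 0.27 without DMM replicate 1 for Col4a3, 0.03 without PBS replicate 4 to 0.20 without PBS replicate 3 for Col4a4, -0.56 without DMM replicate 1 to -0.16 without PBS replicate 4 for Col6a1 and -0.62 without DMM replicate 4 to -0.14 without DMM replicate 3 for Col12a1. For the rest they ran from -0.95 without DMM replicate 1 to -0.44 without DMM replicate 4 for Col16a1, -1.23 without DMM replicate 1 to -0.53 without DMM replicate 4 for Col8a2, -2.02 without DMM replicate 1 to -0.78 without DMM replicate 3 for Col10a1, -0.79 without DMM replicate 1 to -0.40 without DMM replicate 3 for Col15a1, -0.48 without DMM replicate 1 to -0.20 without DMM replicate 4 for Col18a1 and -1.21 without DMM replicate 1 to -0.58 without DMM replicate 3 for Col7a1. The difference in collagen share was -0.44 percentage points and ranged from -0.79 to -0.29. PBS and DMM libraries share only replicate numbers, and the correlation of same-numbered pairs ran from -0.22 to 0.34, over 0.1 in 2 of 5. PBS libraries correlated best with their own number in 1 of 5 and DMM libraries in 2 of 5. With the replicate block 0 collagen genes were called, 7 were lower more than 1.5-fold apart at unadjusted p under 0.05 against 4.73% of all genes, and the fibrillar median was -0.56.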
